A study of Mus musculus with 6 samples.

Results

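The fibrillar collagen chains of types I, III and V are described here in mouse liver, as 6 genes of the 28601 in the deposited table, chosen by symbol: Col1a1, Col1a2, Col3a1, Col5a1, Col5a2 and Col5a3. All 6 were among the 18648 genes tested. Liver RNA came from 3 male mice that carried the PRDX1 Cys52Ser substitution and 3 wild-type (WT) male mice, all fed CDAHFD, a high-fat diet that lacks choline and takes its protein as defined amino acids, used to raise steatohepatitis with scarring. Peroxiredoxin 1 is a peroxidase, and Cys52 is the residue that meets its peroxide substrate. By the titles and the design text the mice were 8 weeks old when feeding started and were fed for 8 weeks. The treatment field instead gives 11, 12 and 13 weeks for the Cys52Ser mice and 8, 9 and 10 weeks for the WT mice, and if it were literal, genotype and feeding time cannot be told apart. No group on another diet was analysed here, so each value below is a difference between genotypes in diseased liver.

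Fibrillar collagens are made as procollagen chains that fold into a triple helix, are secreted, lose their end propeptides and assemble into crosslinked fibrils. Type I fibrils, built from the chains encoded by Col1a1 and Col1a2, and type III fibrils, built from the Col3a1 chain alone, form most of the scar in a fibrotic liver. Type V collagen, from Col5a1, Col5a2 and Col5a3, is a minor partner that helps to start type I fibrils and limits their width. In injured liver the main source is the activated hepatic stellate cell, with portal fibroblasts as another source.

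The promoter sequences are shown because the chains had differences of the same sign. RefSeq promoter sequence (GRCm38.p6) was matched for 4 of the 6 genes, and up to 250 bases before the annotated start are printed on the gene's strand, 5′ to 3′. The start is RefSeq's, which for Col1a2 lies inside the span that the deposited table gives the gene, so that window is not upstream of the table's start, and only its 123 bases outside annotated exons are shown. Col1a1 and Col5a2 had no entry. Capitals mark a TATA box, with the letters TATAAA, the letters CCAAT, a GC box, with the letters GGGCGG, or a CAGA box of the kind SMAD factors bind, with the letters CAGACA. These and an AP-1 site, with the letters TGACTCA, were searched on both strands.
Col1a2, chr6:4505370-4505492, plus strand: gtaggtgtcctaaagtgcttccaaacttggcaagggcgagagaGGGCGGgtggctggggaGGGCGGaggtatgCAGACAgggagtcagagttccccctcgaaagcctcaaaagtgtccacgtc
Col3a1, chr1:45311288-45311537, plus strand: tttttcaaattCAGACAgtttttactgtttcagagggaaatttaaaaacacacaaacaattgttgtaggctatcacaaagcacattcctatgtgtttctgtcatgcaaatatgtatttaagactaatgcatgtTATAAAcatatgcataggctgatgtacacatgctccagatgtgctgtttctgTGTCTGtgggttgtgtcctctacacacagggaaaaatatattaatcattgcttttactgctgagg
Col5a1, chr2:27886175-27886424, plus strand: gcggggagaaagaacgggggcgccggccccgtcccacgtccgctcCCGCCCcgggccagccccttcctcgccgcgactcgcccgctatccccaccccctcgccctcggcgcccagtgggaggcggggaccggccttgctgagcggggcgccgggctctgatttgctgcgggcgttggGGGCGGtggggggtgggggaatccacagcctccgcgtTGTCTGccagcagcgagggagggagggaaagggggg
Col5a3, chr9:20815068-20815317, minus strand: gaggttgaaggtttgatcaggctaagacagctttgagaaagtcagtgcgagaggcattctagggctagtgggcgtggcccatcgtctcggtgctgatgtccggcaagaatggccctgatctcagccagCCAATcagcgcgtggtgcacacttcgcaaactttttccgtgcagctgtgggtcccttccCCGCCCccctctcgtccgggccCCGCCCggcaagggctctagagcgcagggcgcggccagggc
The letters CAGACA or their reverse complement stood in the Col1a2, Col3a1 and Col5a1 windows and not in that of Col5a3, and they occur in 17.1% of the 32851 RefSeq promoter windows of 250 bases. GC boxes stood in the windows of Col1a2, Col5a1 and Col5a3, against 32.7% of all windows. The letters TATAAA stood only in the Col3a1 window, beginning 117 bases before its RefSeq start, against 12.4% of all windows. The CCAAT letters of the Col5a3 window occur in 33.8% of windows, and no AP-1 letters, which occur in 4.46%, were found in the 4 printed. No motif match overlapped another. The GC content was 59.3% for Col1a2, 35.2% for Col3a1, 76.4% for Col5a1 and 62.8% for Col5a3, against a median of 52.4% over all windows. For Col1a2 the search and the GC content cover only its 123 bases, an unlike length to the windows of 250 bases behind the shares. A match is a run of letters and not a measured binding site.

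Levels within a gene are given as CPM, the deposited counts over the TMM-adjusted library size, and levels between genes as the deposited FPKM, which is scaled to transcript length. All 6 chains had a lower mean in Cys52Ser than in WT livers, and 5 of the 6 had every Cys52Ser mouse below every WT mouse, against 15.2% of tested genes (29.7% without overlap in either direction). Only Col3a1 and Col5a2 passed the test across all genes, edgeR's quasi-likelihood test with Benjamini-Hochberg adjustment at 0.05. In that test 2.46% of all genes were called lower and 2.52% higher, 4.98% in all. The median log2 fold change of the 6 chains was -1.11, beside -0.0032 over all tested genes.

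Col3a1 (ENSMUSG00000026043, GRCm38 chromosome 1, 45311538 to 45349706) encodes the single chain of type III collagen, which appears early in scars. It stood at 282, 269 and 227 CPM in the Cys52Ser mice and at 847, 662 and 458 CPM in the WT mice. The groups lay well apart, with the lowest WT mouse 1.63 times the highest Cys52Ser mouse. Col3a1 fell 2.53-fold, by a log2 fold change of -1.34 with a 95% confidence interval from -1.89 to -0.79 (edgeR adjusted p = 0.0302). The adjusted p was 0.0957, 0.0606 and 0.115 without Cys52Ser replicates 1, 2 and 3, 0.0556 and 0.0871 without WT replicates 1 and 2, and 0.0241 without WT replicate 3.

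Col1a1 (ENSMUSG00000001506, chromosome 11, 94936224 to 94953042) encodes the major chain of type I collagen and is a common readout of liver fibrosis. The Cys52Ser mice had 99.0, 106 and 71.6 CPM and the WT mice 310, 199 and 129 CPM. The groups did not overlap, but WT replicate 1 was 2.40 times WT replicate 3, and the lowest WT mouse was 1.22 times the highest Cys52Ser mouse. Its log2 fold change of -1.20 (95% confidence interval -1.96 to -0.44) did not pass (edgeR adjusted p = 0.0823). Without WT replicate 3 it was -1.51 and passed (adjusted p = 0.0444), and without WT replicate 1 it was -0.87 (adjusted p = 0.159).

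Col1a2 (ENSMUSG00000029661, chromosome 6, 4504814 to 4541544) encodes the other chain of type I collagen. Its levels were 132, 172 and 103 CPM in the Cys52Ser mice and 383, 257 and 183 CPM in the WT mice. Cys52Ser replicate 2 came close to WT replicate 3, the gap being 1.06 times. Its log2 fold change of -1.02 (95% confidence interval -1.73 to -0.30) did not pass (edgeR adjusted p = 0.102).

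Col5a2 (ENSMUSG00000026042, chromosome 1, 45374321 to 45503282) encodes the second chain of the common form of type V collagen. It measured 25.4, 28.1 and 19.98 CPM in the Cys52Ser mice and 69.3, 55.7 and 43.7 CPM in the WT mice. All Cys52Ser values lay below all WT values, with the lowest WT mouse 1.55 times the highest Cys52Ser mouse. Col5a2 fell 2.29-fold, by a log2 fold change of -1.20 (95% confidence interval -1.66 to -0.73; edgeR adjusted p = 0.0267). The adjusted p was 0.0924, 0.0444 and 0.0934 without Cys52Ser replicates 1, 2 and 3, and 0.0616, 0.0871 and 0.0318 without WT replicates 1, 2 and 3.

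Col5a1 (ENSMUSG00000026837, chromosome 2, 27886425 to 28039514) encodes the main type V chain, which keeps part of its propeptide at the fibril surface. Its values were 25.7, 27.5 and 17.6 CPM in the Cys52Ser mice and 57.3, 42.5 and 35.96 CPM in the WT mice. The groups did not overlap. Its log2 fold change of -0.94 (95% confidence interval -1.47 to -0.41) missed the threshold (edgeR adjusted p = 0.0617).

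Col5a3 (ENSMUSG00000004098, chromosome 9, 20770050 to 20815067) encodes the least widespread type V chain. It measured 17.0, 21.2 and 21.4 CPM in the Cys52Ser mice and 32.1, 15.9 and 29.1 CPM in the WT mice. Here the groups overlapped, since WT replicate 2 was the lowest of all 6 mice. Its log2 fold change of -0.37 (95% confidence interval -0.98 to 0.23) did not pass (edgeR adjusted p = 0.458). Without WT replicate 2 it was -0.68 (adjusted p = 0.0911).

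**Figure D1:**
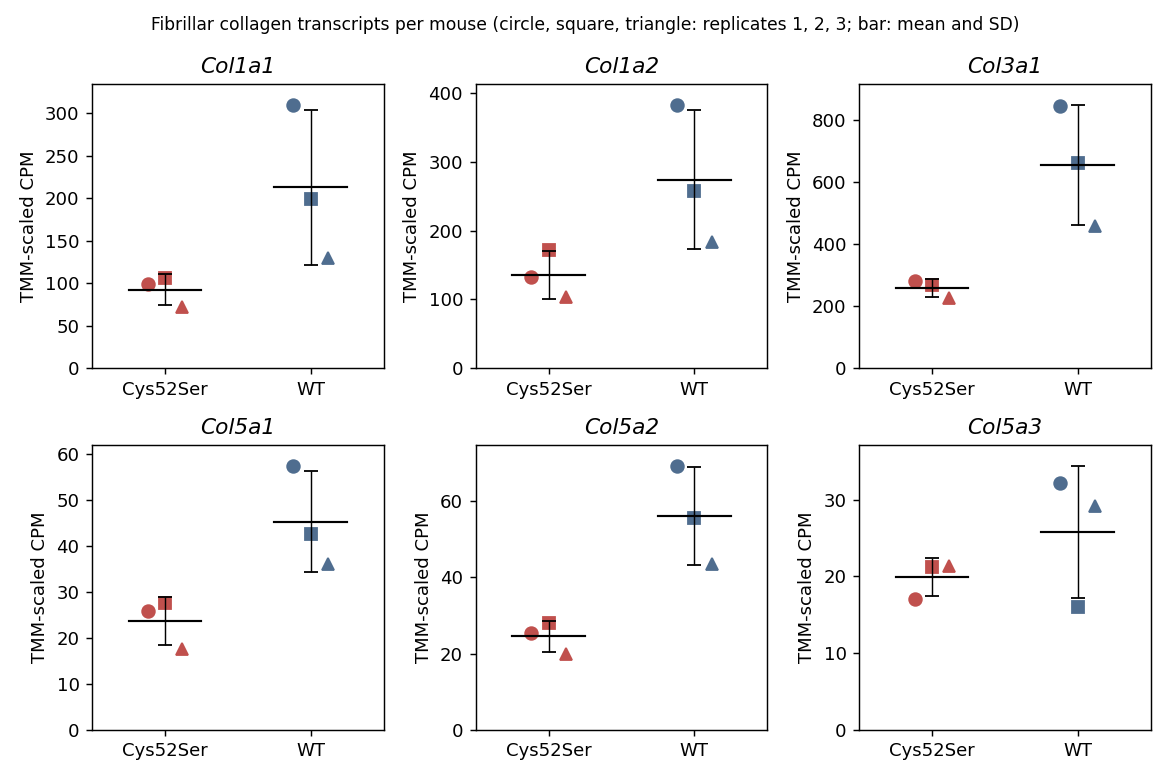
TMM-scaled CPM of each chain per mouse, Cys52Ser left and WT right, with symbols for replicates 1, 2 and 3, a horizontal bar at the mean and an error bar of 1 SD (n = 3 each). The Cys52Ser mice lie below the WT mice in 5 panels and overlap them in that of Col5a3, where WT replicate 2 is at 15.9 CPM.

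**Figure D2:**
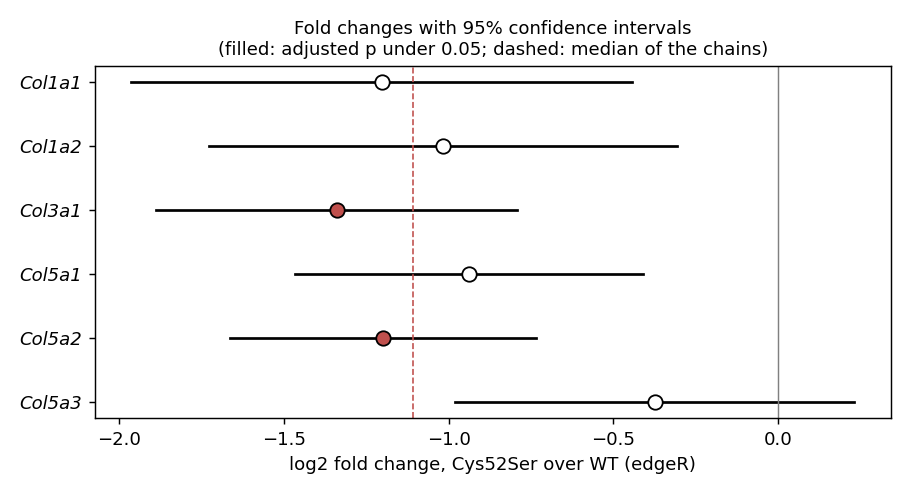
Log2 fold change of each chain, Cys52Ser over WT, with its 95% confidence interval from edgeR; filled points passed the adjusted p threshold of 0.05 and the dashed line is the median of the chains at -1.11. The intervals of 5 chains lie below 0 and that of Col5a3 reaches 0.23.

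The spread among mice was larger in WT than in Cys52Ser livers for all 6 chains. The coefficient of variation of CPM ran from 10.99% (Col3a1) to 25.5% (Col1a2) in the Cys52Ser group and from 22.8% (Col5a2) to 42.8% (Col1a1) in the WT group. WT replicate 1 was the highest mouse for 6 of 6 chains, as it was for 21.8% of all tested genes. Among the Cys52Ser mice, replicate 3 was the lowest of all mice for 5 of 6 chains and replicate 2 the highest of its group for 4. Apart from Col5a3, the WT mice kept 1 rank order in 5 of 6 chains, with replicate 1 above 2 and 2 above 3. The lowest count behind any of these values was 921, for Col5a1 in Cys52Ser replicate 3, and the highest 66978, for Col3a1 in WT replicate 1.

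On the per-length FPKM scale Col3a1, Col1a1 and Col1a2 kept the same order of means in both genotypes, and the type V chains did not. Col3a1 led at 20.8 ± 3.40 FPKM in Cys52Ser and 67.8 ± 25.01 FPKM in WT livers (SD, n = 3 each). Col1a1 followed at 11.1 ± 2.94 FPKM in Cys52Ser and 33.1 ± 16.5 FPKM in WT livers, and Col1a2 at 8.67 ± 2.87 FPKM in Cys52Ser and 22.5 ± 9.93 FPKM in WT livers. In all 3 Cys52Ser and all 3 WT mice Col3a1 was above Col1a1 and Col1a1 above Col1a2, although the ranges of Col1a1 and Col1a2 over mice overlapped in both groups and those of Col3a1 and Col1a1 in WT. The type V chains stood apart below these, with no overlap with Col1a2. Col5a2 had 2.02 ± 0.481 FPKM in Cys52Ser and 5.93 ± 1.80 FPKM in WT livers, and Col5a1 2.19 ± 0.624 FPKM in Cys52Ser and 5.35 ± 1.70 FPKM in WT livers. Col5a3 had 2.29 ± 0.352 FPKM in Cys52Ser and 3.78 ± 1.37 FPKM in WT livers. By mean the type V order was reversed, with Col5a3, Col5a1, Col5a2 in Cys52Ser and Col5a2, Col5a1, Col5a3 in WT livers. The ranges of neighbouring type V chains overlapped in both groups, so their order was not separated beyond the spread.

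Summed over the 6 chains, the level was 48.4, 56.6 and 36.3 FPKM in the Cys52Ser mice and 197, 132 and 86.3 FPKM in the WT mice. The groups did not overlap, and the mean log2 difference was -1.50, or 2.83-fold lower in Cys52Ser. On the TMM-scaled CPM scale the same sum differed by -1.15. The 6 genes took 0.0375% to 0.0600% of all counts in the Cys52Ser libraries and 0.0919% to 0.205% in the WT libraries. Col3a1 made up 41.1% to 46.6% of the summed FPKM in Cys52Ser livers and 47.2% to 51.3% in WT livers, and Col1a1 22.0% to 24.3% in Cys52Ser and 20.9% to 25.8% in WT livers. The shares of Col3a1 did not overlap between genotypes, while those of Col1a1 did.

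**Figure D3:**
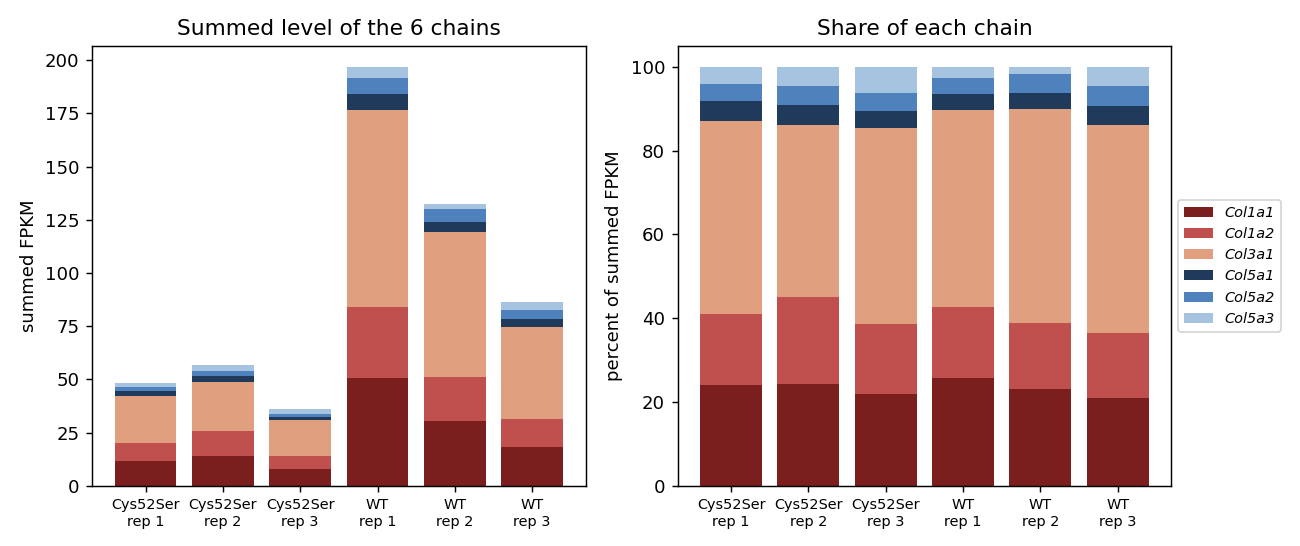
Left, summed FPKM of the 6 chains per mouse, Cys52Ser first; right, the percent of that sum from each chain. The Cys52Ser sums lie between 36.3 and 56.6 FPKM and the WT sums between 86.3 and 197 FPKM, while Col3a1 is the largest share in every mouse.

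Ratios of FPKM within a mouse compare the chains without library scaling. The ratio of Col1a2 to Col1a1, the partners of type I collagen, was 0.703, 0.853 and 0.759 in the Cys52Ser mice and 0.652, 0.683 and 0.746 in the WT mice. The ratio of Col3a1 to Col1a1 was 1.901, 1.69 and 2.12 in the Cys52Ser mice and 1.83, 2.23 and 2.37 in the WT mice. Both ratios overlapped between genotypes. The log2 ratio to Col1a1 differed between Cys52Ser and WT livers by 0.15 for Col1a2, -0.17 for Col3a1, 0.20 for Col5a1 and -0.06 for Col5a2, which is -0.0555 before rounding. For Col5a3 it differed by 0.82, with ratios of 0.166, 0.192 and 0.288 in the Cys52Ser mice and 0.0999, 0.0772 and 0.217 in the WT mice. None of the 5 ratios passed an exact two-sided permutation test, with raw p of 0.2 for Col1a2, 0.3 for Col3a1, 0.4 for Col5a1, 0.7 for Col5a2 and 0.3 for Col5a3, and adjusted p of 0.5, or 0.7 for Col5a2. With 3 mice against 3 the smallest possible p is 0.1, so a difference in ratios could not have passed. The SD of the log2 Col5a3 ratio was 0.412 in Cys52Ser and 0.776 in WT livers.

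Col3a1 and Col5a2, the chains that passed, are neighbours on chromosome 1. They lie tail to tail on opposite strands, 24614 bases apart, with 0 other genes of the table between them. Of 8 other genes listed within 500000 bases on either side, 3 were tested, of which 0 were called by edgeR, 0 by DESeq2 and 0 passed an unadjusted p of 0.05. On the log2 scale Wdr75, a ribosome assembly gene, differed by -0.11 (edgeR adjusted p = 0.746), the gene model Gm5526 by -0.34 (0.711) and Slc40a1, the iron exporter ferroportin, by 0.48 (0.255). GENCODE M21 places other gene models inside or across 5 of the 6 genes, and those in the table reached at most 0.354 CPM.

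The scale of the differences moved with the processing, and the calls moved with it. With library totals alone the log2 fold changes were -1.57 for Col1a1, -1.37 for Col1a2, -1.70 for Col3a1, -1.29 for Col5a1, -1.55 for Col5a2 and -0.73 for Col5a3, but that scaling also moved the median of all tested genes to -0.35. It called 5 of the 6 chains lower, against 14.6% of all genes. DESeq2 called the same count, 5, against 8.06% of the genes with an adjusted p, and limma also 5 on log2(FPKM + 0.5), log2(FPKM + 0.1) and log2(FPKM + 1), against 20.7%, 20.9% and 20.6%. Col5a3 was the chain not called with library totals, DESeq2 and limma on log2(FPKM + 0.5), with adjusted p of 0.109, 0.419 and 0.125. On FPKM 5 of the 6 chains had no overlap, against 37.7% of tested genes lower without overlap. With RLE factors, upper quartile factors, no filter, a mean of at least 1 CPM, a non-robust fit and unfiltered limma, 2 chains were called in each, against 2.42%, 2.96%, 1.59%, 3.96%, 2.19% and 3.81% of genes called lower. Leaving out a library gave 0 chains and 0.0467% of genes without Cys52Ser replicate 1, 1 chain and 1.12% without Cys52Ser replicate 2, and 0 chains and 0.0363% without Cys52Ser replicate 3. It gave 0 chains and 1.05% without WT replicate 1, 0 and 0.0724% without WT replicate 2, and 3 and 2.12% without WT replicate 3. In all 18 alternatives, each of the 6 chains had a negative log2 fold change, from -1.70 (Col3a1) to -0.23 (Col5a3).

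**Figure D4:**
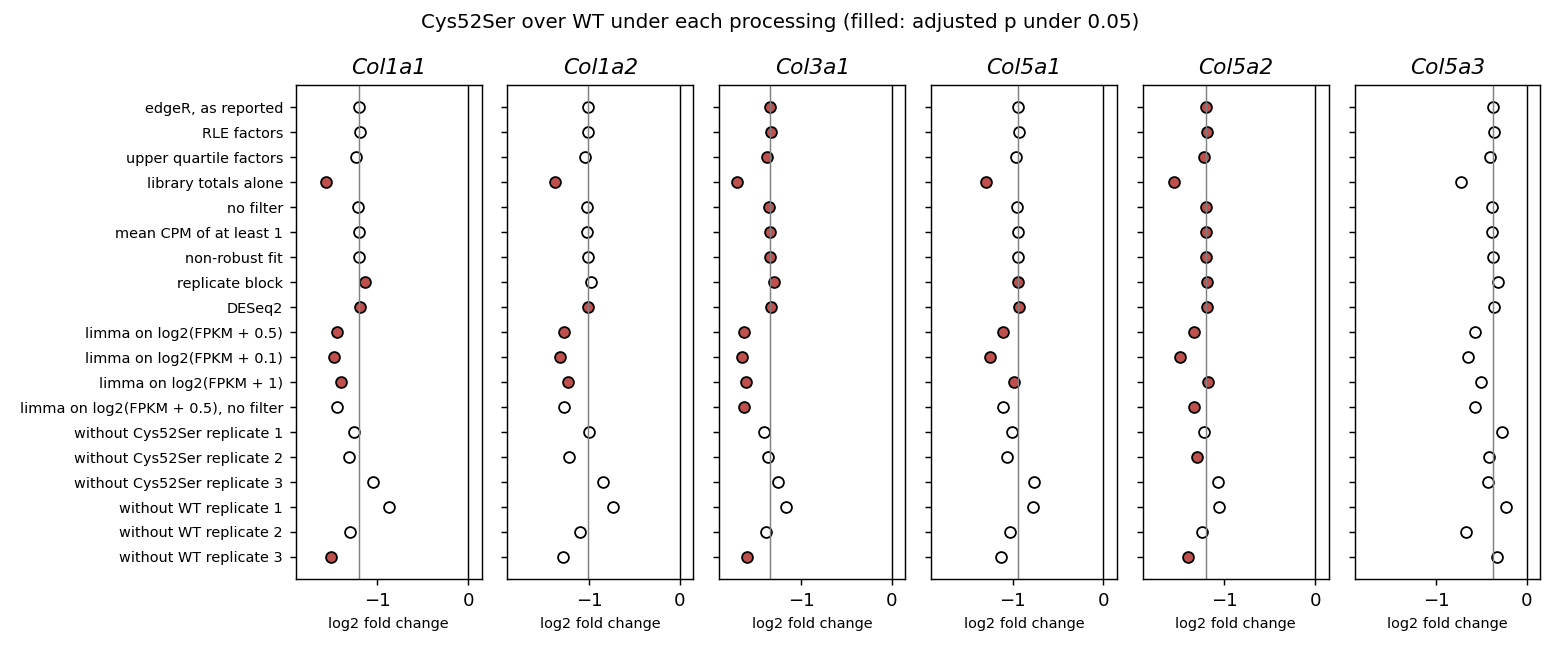
Log2 fold change of each chain, Cys52Ser over WT, as reported and under each of 18 alternatives; filled points passed the adjusted p threshold of 0.05, the grey line is the reported value and the black line is 0. Every point lies below 0, Col5a3 is never filled, and none is filled without Cys52Ser replicate 1 or 3 or without WT replicate 1 or 2.

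Genes for other steps of fibril formation were counted in lists. Of 4 tested other fibrillar chains (Col11a1, Col11a2, Col24a1 and Col27a1), none passed in edgeR, 0 had an unadjusted p under 0.05 and DESeq2 also called 0. Col27a1, the most abundant of these in CPM, stood at 14.3 ± 4.45 CPM in Cys52Ser and 13.99 ± 7.36 CPM in WT livers (SD, n = 3 each), and its log2 fold change of 0.03 was -0.36 with library totals. On the log2 scale Col24a1 differed by 0.73 (edgeR adjusted p = 0.515) and Col11a2 by -0.28 (0.701). The median of this list was 0.02, beside -1.11 for the chains of types I, III and V. Apart from Col27a1 these genes were low. Mean levels in Cys52Ser and WT livers were 0.17 and 0.17 CPM for Col11a1, 0.54 and 0.33 CPM for Col24a1, and 1.45 and 1.77 CPM for Col11a2. The confidence interval of the log2 fold change ran from -2.55 to 2.58 for Col11a1 and from -0.91 to 0.96 for Col27a1. With levels and intervals like these, the median cannot show that the other fibrillar chains were unchanged. The cartilage gene Col2a1 was too low to be tested. Over all 31 other tested collagen genes, a list made after the values were seen, the median was -0.58, with 25 negative, 2 lower and 0 higher by edgeR. Those 2 were Col6a3, a chain of the beaded-filament type VI collagen, 3.57-fold lower (edgeR adjusted p = 0.0189), and Col4a4, a basement membrane chain, 3.95-fold lower (adjusted p = 0.0262). Col4a4 was low, with means of 0.77 CPM in Cys52Ser and 3.05 CPM in WT livers, beside 39.9 and 143 CPM for Col6a3.

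Of 19 genes for procollagen synthesis and folding, 1 fell and 0 rose, with a list median of -0.40. The one that fell was Crtap, a partner of prolyl 3-hydroxylase, 1.72-fold lower (edgeR adjusted p = 0.0353). Plod2, the telopeptide lysyl hydroxylase, had 5.39 ± 2.19 CPM in Cys52Ser and 13.4 ± 2.03 CPM in WT livers (SD, n = 3 each; edgeR adjusted p = 0.0535). Plod1, the helix lysyl hydroxylase, had 82.0 ± 7.77 CPM in Cys52Ser and 59.8 ± 1.84 CPM in WT livers (SD, n = 3 each, edgeR adjusted p = 0.0526). On FPKM the Plod1 groups overlapped, with means of 9.48 in Cys52Ser and 8.83 in WT livers. Over 18 alternatives the log2 fold change of Plod1 ran from 0.09 to 0.50, and 4 of them passed. Crtap kept its call only without WT replicate 3 (adjusted p = 0.0318) among the fits with 1 library left out. Without Cys52Ser replicate 2 the calls were instead Plod2 and Serpinh1, the collagen chaperone HSP47 (adjusted p = 0.0384 for each), and the other 4 such fits gave 0. Counted in either direction, calls numbered 7 with DESeq2 and 9 with library totals or limma on log2(FPKM + 0.5). Over all genes those settings called 2766 of 15723, 3017 of 18648 and 3250 of 13938.

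Of 11 tested genes for propeptide removal and crosslinking, 4 fell and 1 rose, with a median of -0.46. The lysyl oxidase genes Loxl1, Lox and Loxl2, whose enzymes crosslink fibrils, fell 3.63-fold, 3.45-fold and 1.88-fold (edgeR adjusted p = 0.0303, 0.0473 and 0.0369). Adamts2, the N-propeptidase of types I and III, fell 2.78-fold (adjusted p = 0.0484). Bmp1, the C-propeptidase, rose 1.68-fold, to 136 ± 14.2 CPM in Cys52Ser, against 80.8 ± 5.38 CPM in WT livers (SD, n = 3 each, adjusted p = 0.0243). On FPKM its means were 11.9 in Cys52Ser and 9.09 in WT livers, without overlap. Over 18 alternatives the log2 fold change of Bmp1 ran from 0.36 to 0.81, and the call was lost in 4. The 2 proteinases that cut opposite ends of the procollagen chains differed in direction. Calls in either direction numbered 0 without Cys52Ser replicate 1 or 3 or WT replicate 2, and 2 without Cys52Ser replicate 2. They numbered 3 without WT replicate 1 and 4 without WT replicate 3.

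Of 12 fibril-associated matrix genes, 5 fell and 1 rose, with a median of -0.68. Among small proteoglycans that bind fibrils, Fmod fell 3.92-fold, Lum 3.21-fold and Dcn 1.74-fold (edgeR adjusted p = 0.0403, 0.0243 and 0.0442), while Bgn differed by -1.10 on the log2 scale and did not pass (0.0515). Thbs2 fell 2.77-fold and Sparc 1.86-fold, both matricellular proteins (adjusted p = 0.0434 and 0.0494), and Fn1, fibronectin, which hepatocytes also secrete, rose 1.74-fold (adjusted p = 0.0359). The Fn1 call was lost with any 1 library left out (adjusted p of 0.0571 to 0.119) and in 9 of 18 alternatives in all. Calls in either direction numbered 0 without Cys52Ser replicate 1 or 3 or WT replicate 2, and 1 without Cys52Ser replicate 2. They numbered 2 without WT replicate 1 and 7 without WT replicate 3.

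Of 8 collagen receptors and uptake genes, Ddr1, a collagen-binding receptor tyrosine kinase, fell 3.64-fold (edgeR adjusted p = 0.0207), and the list median was -0.59. The endocytic collagen receptor Mrc2 differed by -1.44 on the log2 scale (adjusted p = 0.0584) and the integrin subunit Itga2 by -1.14 (0.196). The call of Ddr1 was lost without Cys52Ser replicate 1 or 3 or WT replicate 2, with adjusted p of 0.0799, 0.0871 and 0.0715. Of 11 genes for collagen breakdown and its inhibitors, 2 fell and 1 rose, with a median of -0.35. Mmp2, a gelatinase, fell 4.02-fold and Ctsk, the collagen-degrading cathepsin K, 3.81-fold, while the metalloprotease Mmp19 rose 1.51-fold (adjusted p = 0.033, 0.0223 and 0.0385). Calls in that list numbered 0 without Cys52Ser replicate 1 or 3 or WT replicate 2. The Mmp19 call was lost in 11 of 18 alternatives, library totals (log2 fold change 0.23, adjusted p = 0.22) and limma on log2(FPKM + 0.5) (0.24, 0.186) among them.

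Of 15 inducers of collagen transcription, 5 fell and 0 rose, with a median of -0.70. Tgfb2, a ligand of the TGF-beta pathway, fell 4.16-fold, and Tgfbr1, its signalling receptor, 1.62-fold (edgeR adjusted p = 0.0338 and 0.0368). Pdgfa and Pdgfb, growth factors for stellate cells and fibroblasts, fell 1.75-fold and 2.30-fold, and the receptor Pdgfra 3.09-fold (adjusted p = 0.0382, 0.0487 and 0.0494). Calls in either direction numbered 0 without Cys52Ser replicate 1 or 3 or WT replicate 2, and 1 without Cys52Ser replicate 2. They numbered 3 without WT replicate 1, 5 without WT replicate 3, and 10 with library totals or limma on log2(FPKM + 0.5). Over all genes, library totals called 3017 of 18648 and that limma fit 3250 of 13938.

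The 8 genes closest in profile to the chains were ranked among 14593 genes with a mean of at least 1 CPM. Closeness was the root mean square, over the 6 mice, of the difference in gene-centred log2 CPM from the mean of the chains, and it was 0.07 for Efemp2, an elastic fibre and crosslinking glycoprotein, 0.0771 for Vsig8 and 0.0846 for Sparc, against a median of 0.61. B4galt6, Tspan3, Pfkfb4, Fkbp10, which encodes a procollagen chaperone, and Nav1 followed at 0.0951 to 0.105. The 6 mice share the genotype difference, so this closeness is a description only. Of these 8, 4 were also among the 8 closest on log2(FPKM + 0.5). Among the chains themselves Col5a1 lay nearest to the mean of the chains (0.0898), then Col1a2 (0.127) and Col5a2 (0.127), Col1a1 (0.175) and Col3a1 (0.199), and Col5a3 farthest (0.493).

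Marker genes of the cells that make collagen, and of others, are given beside these results. In bulk tissue, fewer cells of a type and less RNA per cell cannot be told apart. Of 10 stellate cell markers, 3 fell and 0 rose: Lrat, the enzyme that stores retinol as esters, 1.51-fold, Ngfr 2.90-fold and Cygb 2.84-fold (edgeR adjusted p = 0.0425, 0.0243 and 0.0352). Calls in this list numbered 0 without Cys52Ser replicate 1 or 3 or WT replicate 2, and 1 without Cys52Ser replicate 2. They numbered 3 without WT replicate 1 and 3 without WT replicate 3. The summed level of the 10 was 261 to 307 CPM in Cys52Ser and 367 to 503 CPM in WT livers. Per unit of summed stellate marker FPKM, the summed collagen FPKM was 0.788, 0.787 and 0.559 in the Cys52Ser mice and 1.32, 1.13 and 0.923 in the WT mice, without overlap. Per unit of summed portal fibroblast marker FPKM it was 6.81, 3.40 and 6.34 in the Cys52Ser mice and 6.70, 6.40 and 5.53 in the WT mice, which overlapped, as did the ratios to the smooth muscle, mesothelial, cholangiocyte and macrophage sums; those to the hepatocyte and endothelial sums did not overlap. No defining marker was at 0 in any library.

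Of 6 portal fibroblast markers, 1 fell (Entpd2, edgeR adjusted p = 0.0316, and 0 with any 1 library left out). Their sum was 42.0, 111 and 29.99 CPM in Cys52Ser replicates 1, 2 and 3 and 76.1 to 161 CPM in WT livers. Of 5 smooth muscle and contractile myofibroblast markers, none passed in edgeR, with 0 at an unadjusted p under 0.05 and 0 in DESeq2, though without Cys52Ser replicate 2 Tagln, an actin-binding protein of contractile cells, differed by -0.87 on the log2 scale (adjusted p = 0.0401). The sum of the 5 was 55.6, 329 and 37.3 CPM in Cys52Ser replicates 1, 2 and 3 and 65.1 to 98.4 CPM in WT livers. The high end came from Cys52Ser replicate 2, where Acta2 stood at 90.4 CPM, against 16.5 and 9.86 CPM in Cys52Ser replicates 1 and 3 and 18.4 to 29.6 CPM in WT mice. In that library the collagen chains stayed below every WT mouse except for Col5a3. Without it the log2 fold changes were -1.37 for Col3a1 (adjusted p = 0.0606) and -1.31 for Col5a2 (adjusted p = 0.0444). Of 5 cholangiocyte markers 1 fell (Cldn7, edgeR adjusted p = 0.0393). There were 2 calls without WT replicate 3 and 0 in the other 5 fits with 1 library left out. Their sum was 30.0, 90.3 and 22.6 CPM in Cys52Ser replicates 1, 2 and 3 and 47.2 to 123 CPM in WT livers. Of 4 mesothelial markers none passed in edgeR, with 1 at an unadjusted p under 0.05 and 1 in DESeq2, and sums of 3.56 to 26.9 CPM in Cys52Ser and 20.7 to 24.8 CPM in WT livers.

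**Figure D5:**
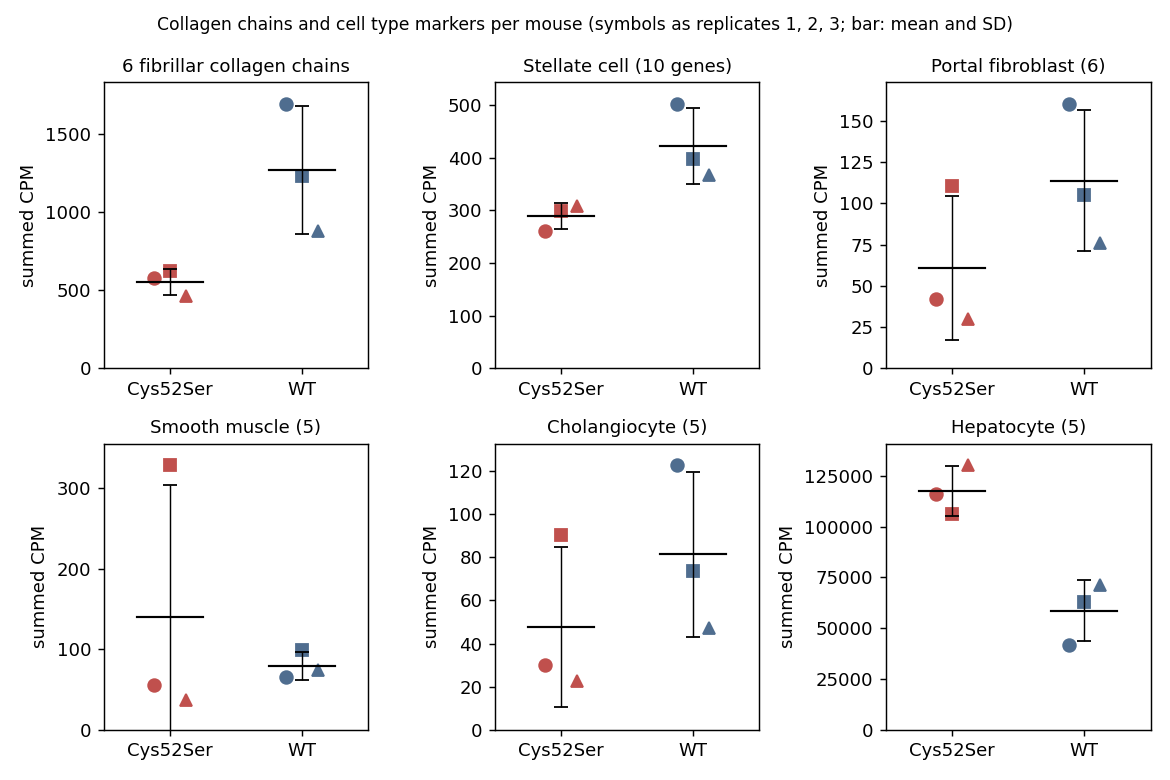
Summed TMM-scaled CPM of the 6 collagen chains and of 5 marker lists per mouse, Cys52Ser left and WT right, with symbols for replicates 1, 2 and 3 and bars at the mean and SD (n = 3 each). The collagen and stellate sums do not overlap between genotypes, and the portal fibroblast, smooth muscle and cholangiocyte sums do. Those overlaps come from Cys52Ser replicate 2 alone, the highest smooth muscle value at 329 CPM. Cys52Ser replicates 1 and 3 lie below every WT mouse in those panels.

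Of 5 hepatocyte markers 1 rose (Hnf4a, edgeR adjusted p = 0.0355, kept only without Cys52Ser replicate 2 among the fits with 1 library left out). Their sum, most of it Alb, was 106080 to 130429 CPM in Cys52Ser and 41878 to 71030 CPM in WT livers, with Alb, albumin (adjusted p = 0.0573), taking 8.08% to 8.49% of all counts in Cys52Ser and 3.60% to 5.55% in WT libraries. WT replicate 1, the highest mouse for the collagens, had the lowest of these shares. Of 6 macrophage markers Lyz2, Trem2 and Gpnmb fell and Clec4f, a Kupffer cell lectin, rose, and of 5 endothelial markers Kdr and Cdh5 rose. Both lists had 0 calls without Cys52Ser replicate 1 or 3 or WT replicate 2. The part of these shifts in the collagen differences was not tested.

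Totals per library were 56473479 to 73900923 counts in Cys52Ser and 53318196 to 65465225 in WT livers, and TMM factors were 0.814 to 0.963 in Cys52Ser and 1.05 to 1.21 in WT libraries. Across all genes 928 of 18648, 4.98%, were called by edgeR. Prdx1 itself differed by -0.24 on the log2 scale (edgeR adjusted p = 0.421), and a change of 1 residue cannot be checked in gene-level counts.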

How the data were processed

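The deposited table holds, per the file headers, a count and an FPKM value per gene for 3 Cys52Ser and 3 WT livers. The counts are whole numbers that the authors deposited without stating whether they stand for reads or fragments. For the 6 chains, count over FPKM equalled a gene constant times a library constant to within 0.063%. The deposited FPKM values are relative to library size and transcript length, per the file headers. Tools in the submitters' processing notes are StringTie 1.3.4d, HISAT2 2.0.4, cutadapt 1.9 and UMI-tools, beside edgeR and DESeq2, with no roles given. Those notes give mm9; yet 90.0% of 28524 matched genes, the 6 chains included, have identical coordinates in GENCODE M21, so positions are GRCm38. Libraries were poly(A)-selected and strand-marked, per the labels' protocols; strand use in counting is not stated. Groups came from the titles.

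Counts were tested with edgeR 4.0.16 in R 4.3.3 (filterByExpr with a minimum count of 10, TMM, robust quasi-likelihood fit, genotype only), adjusted over 18648 genes; the fit was tested on simulated data. The standard error was the log2 fold change over the square root of F. DESeq2 1.42.0 and limma 3.58.1 on FPKM with pseudocounts of 0.1, 0.5 and 1 (mean FPKM of at least 0.5) were alternatives. Named genes were the chains, the 8 closest profiles, and in each pathway list the called genes and the 3 smallest p. The neighbours on chromosome 1 were named after their values were seen, as were Clps, Hnf4a and other markers. The chains and lists were chosen with earlier results of these data known. Same-numbered mice were not paired, since their deviations correlated at -0.04, 0.14 and 0.02. No libraries agreed within sampling noise (chi-square per degree of freedom of 86.9 or more). Counts limit precision only through sampling error beside the spread between mice.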

Additional observations from a re-analysis of the deposited data

How the results depend on the processing

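Each of the 6 chains kept a negative log2 fold change in all 18 alternatives. The count of chains called, 2 as reported, was 5 with library totals, DESeq2 and limma on log2(FPKM + 0.1), log2(FPKM + 0.5) and log2(FPKM + 1), 4 with the replicate number as a block, and 0 to 3 with 1 library left out (0 without Cys52Ser replicate 1 or 3 or WT replicate 1 or 2, 1 without Cys52Ser replicate 2, 3 without WT replicate 3). The numbers do not pair the mice, so the block result, which adds Col1a1 (adjusted p = 0.0476) and Col5a1 (0.0372), is given only here. The count over all genes, 928, was 3017 with library totals, 2766 with DESeq2, 3271, 3250 and 3236 with limma at pseudocounts of 0.1, 0.5 and 1, 729 with the block and 28 to 790 with 1 library left out; each such fit has fewer mice, and the cause was not otherwise tested. The summed level differed by -1.80 to -1.21 (log2) with 1 library left out. Of the ratios to Col1a1, that of Col5a2 (-0.06) turned to 0.088 without WT replicate 3; it ran from -0.21 to 0.088, that of Col1a2 from 0.08 to 0.22, of Col3a1 from -0.28 to -0.08, of Col5a1 from 0.06 to 0.36 and of Col5a3 from 0.51 to 1.25. Ratios of counts, chosen after seeing the data, changed no direction. Counts per kilobase were not run, since the table gives no length. Col27a1, at 0.03, turned to -0.0056 with upper quartile factors, -0.36 with library totals, -0.18, -0.23, -0.14 and, unfiltered, -0.18 with limma at pseudocounts of 0.5, 0.1, 1 and 0.5, and -0.06, -0.16, -0.23 and -0.24 without Cys52Ser replicates 2 and 3 and WT replicates 2 and 3, within a range up to 0.50 without WT replicate 1; the cause was not tested.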
